A study of Mus musculus with 4 samples.

Results

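The nuclear genes of the mitochondrial respiratory chain were described in 4 mouse mammary tumor cell lines, of which 2 carried a CRISPR/Cas9 knockout of S100a4, which encodes a calcium-binding protein of the S100 family. Members were chosen by gene symbol alone: every symbol that starts with Nduf, Uqcr or Atp5, or with Cox and a digit from 4 to 8, together with Sdha, Sdhb, Sdhc and Sdhd. The rule found 92 of the 21090 genes in the table. These were 36 genes of complex I, 4 of complex II, 8 of complex III, 20 of complex IV, 16 of complex V (ATP synthase) and 8 whose products help to assemble a complex. Of the 92 members, 84 had a mean of at least 1 RPKM (reads of a gene per kilobase of its length, scaled to the size of the library) over the 4 libraries and were tested.

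The respiratory chain sits in the inner membrane of the mitochondrion. Complexes I and II pass electrons from NADH and succinate to ubiquinone, complex III passes them on to cytochrome c, complex IV hands them to oxygen, and ATP synthase uses the proton gradient that complexes I, III and IV build. Most subunits are encoded in the nucleus and imported, the rest are encoded in mitochondrial DNA, and every complex except complex II holds subunits of both origins. Several complex IV subunits exist as a broadly expressed form and a form restricted to tissues such as heart, skeletal muscle, lung or testis, and Cox6a1 and Cox6a2 are such a pair, Cox6a2 being the heart and skeletal muscle form.

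By the study's account, all 4 lines go back to a mammary tumor that had spread to the lung. That tumor arose in a mouse in which Cre under the MMTV promoter activated a point mutation of Pik3ca and a point mutation of Trp53. The controls were the unmodified parental line and a vector control line (n = 2), and the knockouts were edited in S100a4, 1 line at exon 3 and 1 at exon 2 (n = 2), each infected with a lentivirus expressing Cas9 and its guide RNA and selected on puromycin. Each line gave 1 library, so every p-value below measures the spread between lines, and the vector, the infection and the selection cannot be told apart from line-to-line differences. By title, the exon 2 knockout cells are number 308 and those of the other 3 libraries number 307. The edited exon and the starting cells therefore cannot be told apart within the knockout group. No control library has number 308, so knockout and starting cells cannot be told apart for the exon 2 line either.

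The totals behind the RPKM columns were between 22472024 reads in exon 2 knockout cells and 31235456 in parental cells. S100a4 was at 3576 RPKM in parental cells, 4741 in vector control cells, 1136 in exon 3 knockout cells and 1105 in exon 2 knockout cells, lower in both knockouts than in both controls. Of 8 mammary epithelial markers, only Krt8 and Krt18 had a mean of at least 1 RPKM, and Epcam stayed between 0.304 and 0.657 RPKM. The summed RPKM of the 8 was 129.9 in parental cells, 34.4 in vector control cells, 107 in exon 3 knockout cells and 75.0 in exon 2 knockout cells, so the controls differed from each other more than the knockouts did. All 7 mesenchymal markers passed that level, and their summed RPKM was 4990 in parental cells, 3027 in vector control cells, 2792 in exon 3 knockout cells and 2733 in exon 2 knockout cells. Of the immune markers, Cd3e was at 0 in all 4 libraries and Ptprc at 0.010 RPKM or less, while Cd68 was at 4.92, 3.36, 11.5 and 13.2 RPKM in parental cells, vector control, exon 3 and exon 2 knockouts. The endothelial markers Pecam1 and Cdh5 stayed at or under 0.248 RPKM. The part of these markers in the results was not tested.

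Cox6a2 had the largest log2 change of any tested member, and its coding sequence is shown here beside that of Cox6a1 because the level of each isoform rests on telling their reads apart. Both lie on the minus strand of GRCm38, Cox6a1 at chr5:115345642-115348981 and Cox6a2 at chr7:128205435-128206387. Capitals mark bases that differ or have no partner in a global alignment of both sequences. Cox6a2 is whole, and for Cox6a1 the last 300 of 339 coding bases are given, 5′ to 3′.
Cox6a1: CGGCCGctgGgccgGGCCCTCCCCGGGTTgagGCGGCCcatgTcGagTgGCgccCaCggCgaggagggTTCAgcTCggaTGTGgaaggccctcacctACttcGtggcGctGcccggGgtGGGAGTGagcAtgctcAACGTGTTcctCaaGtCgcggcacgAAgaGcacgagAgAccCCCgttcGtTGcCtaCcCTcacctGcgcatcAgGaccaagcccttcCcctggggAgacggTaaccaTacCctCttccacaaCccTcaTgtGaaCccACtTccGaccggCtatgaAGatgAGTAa
Cox6a2: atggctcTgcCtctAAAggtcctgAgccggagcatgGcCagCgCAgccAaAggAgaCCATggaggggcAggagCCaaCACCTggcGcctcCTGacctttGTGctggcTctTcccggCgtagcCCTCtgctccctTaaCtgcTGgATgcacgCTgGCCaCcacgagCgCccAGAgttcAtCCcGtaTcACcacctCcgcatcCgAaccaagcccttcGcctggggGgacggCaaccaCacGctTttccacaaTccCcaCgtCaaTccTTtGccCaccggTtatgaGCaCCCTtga
Of the 261 aligned bases 205 were identical (78.5%), and the longest run of bases that the isoforms share was 12. Neither gene had a copy of at least 98% identity elsewhere in the GENCODE M21 transcripts, searched by BLAST over at least 80% of the coding sequence. Cox6a2 lies inside the annotated span of Itgad, a leukocyte integrin gene on the opposite strand, and Itgad was listed at 0 RPKM in all 4 libraries.

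Cox6a2 was at 2.50 RPKM in parental cells, 2.95 in vector control cells, 18.4 in exon 3 knockout cells and 10.4 in exon 2 knockout cells. Both knockout lines were above both control lines, and the exon 3 line was the highest. These values rested on 23, 22, 127 and 69 reads, and their exact 95% Poisson intervals (counting error only) ran from 1.59 to 3.76, 1.85 to 4.46, 15.3 to 21.9 and 8.13 to 13.2 RPKM. The ratio of the group means was 5.29, and the log2 change of RPKM + 1 was 2.002 (SE 0.367, adjusted p = 0.0909 by limma with Benjamini-Hochberg adjustment over all genes), so it did not pass the threshold of 0.05. With the vector control, the parental, the exon 3 or the exon 2 line left out, the change was 2.09, 1.92, 1.62 and 2.38. A group then held a single line, so no p-value of those fits is given. With the GC and length correction described below the change was 1.44 (adjusted p = 0.155 by limma). Cox6a2 was the only member at least 2-fold higher in all 4 pairs of a knockout with a control (1 of 84 tested members, against 0.423% of all genes tested).

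The broadly expressed Cox6a1 stood at 327 RPKM in parental cells, 398 in vector control cells, 544 in exon 3 knockout cells and 565 in exon 2 knockout cells. Its groups did not overlap either, and the log2 change was 0.62 (SE 0.294, adjusted p = 0.276 by limma), or 0.09 with that correction. Cox6a2 made up 0.760% of the summed Cox6a1 and Cox6a2 RPKM in parental cells, 0.735% in vector control cells, 3.27% in exon 3 knockout cells and 1.81% in exon 2 knockout cells. The share was 0.748% ± 0.0178 in controls and 2.54% ± 1.03 in knockouts (SD, n = 2 each). A two-sided exact permutation test gave p = 0.333, the smallest p that 2 against 2 libraries allow. Cox6a1 remained the dominant isoform in every line.

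The other tissue-restricted isoforms were at or close to 0 and did not follow Cox6a2. Cox7a1, the heart and skeletal muscle form of its subunit, was at 1.84 RPKM in parental cells, 3.89 in vector control cells, 1.58 in exon 3 knockout cells and 1.47 in exon 2 knockout cells, below both controls in both knockouts (log2 change -0.56, SE 0.399, adjusted p = 0.450 by limma), on between 8 and 24 reads. Its share of the summed Cox7a1 and Cox7a2 RPKM was 0.523% ± 0.236 in controls and 0.280% ± 0.05003 in knockouts (SD, n = 2 each, two-sided exact permutation p = 0.333). Cox8b, the muscle form, Cox8c and Cox7b2, testis forms, were listed at 0 in all 4 libraries, where a count of 3 reads over the coding length would have given between 0.386 and 0.627 RPKM. Cox4i2, the lung and oxygen-sensitive form, reached at most 0.164 RPKM, Cox6b2, a testis form, 0.127, and Ndufa4l2, a hypoxia-induced relative of Ndufa4, 0.410. Their broad partners were all abundant: Cox4i1 was between 581 and 1121 RPKM, Cox6b1 between 343 and 605, Cox7a2 between 499 and 597, Cox7b between 145 and 179, Cox8a between 239 and 562 and Ndufa4 between 253 and 376.

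**Figure D1:**
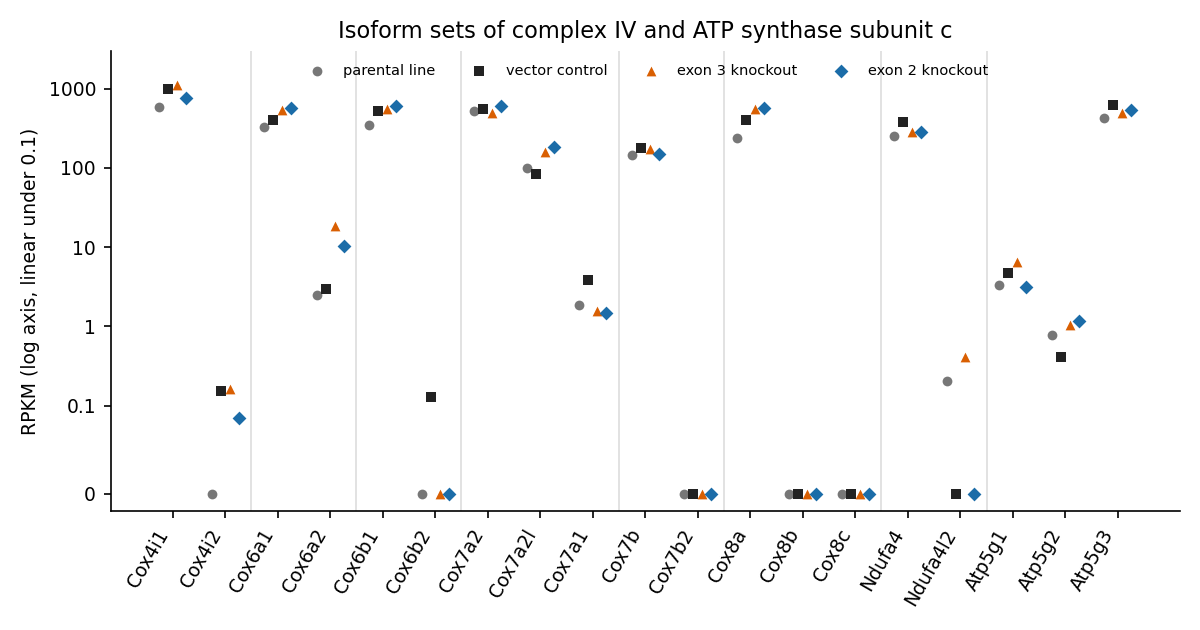
RPKM of each isoform in each of the 4 libraries, on a log axis that is linear under 0.1, with vertical lines between sets. Cox6a2 stands at 18.4 and 10.4 in the knockouts against 2.50 and 2.95 in the controls, while the other restricted forms stay under 4 RPKM and the broad forms of complex IV lie at or above 84.4.

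The markers of striated muscle were described beside Cox6a2, since muscle is where that isoform is usually found. Of 14 markers, Actn2, Myh6, Myog and Myod1 were at 0 in all 4 libraries, Ckm, Ckmt2 and Myh7 did not exceed 0.068 RPKM, and 2 passed the filter. These were the troponin genes Tnnc1, at 2.50, 36.1, 11.5 and 3.48 RPKM in parental cells, vector control, exon 3 and exon 2 knockouts, and Tnnt2, at 5.76, 8.53, 2.11 and 12.2. Neither followed Cox6a2, whose lowest values were in both controls. The summed RPKM of the 14 markers was 10.4 in parental cells, 45.1 in vector control cells, 15.6 in exon 3 knockout cells and 16.8 in exon 2 knockout cells. Of 7 brown adipocyte markers, Cidea and Adipoq were at 0 throughout and Ucp1 reached 0.069 RPKM in parental cells alone, while Fabp4, a general adipocyte gene, was at 90.9 RPKM in parental cells and between 2.68 and 5.61 in the other lines. In bulk samples, fewer cells of a type and less RNA per cell cannot be told apart.

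Most members had higher levels in the knockouts, with no single gene past the adjusted threshold. No member had an adjusted p under 0.05 in limma, against 0.0184% of all genes tested, and voom on recovered reads also called 0. At an unadjusted p under 0.05, 12 of 84 members were higher in knockouts, against 5.32% of all genes, and 0 were lower, against 13.8% of all genes. The 12 were Atp5d, Atp5sl, Cox6a2, Cox7a2l, Cox8a, Ndufa11, Ndufa7, Ndufaf6, Ndufb4, Ndufs7, Uqcr10 and Uqcrq.

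The order of the libraries gave the same direction. Both knockouts were above both controls in 45 of 84 members (53.6%), against 21.9% of all genes tested. Both were below both controls in 4 members (4.76%), against 31.2% of all genes, and these were Atp5f1, Cox7a1, Ndufs1 and Sdha. The median log2 change was 0.37 over the 84 members, with 71 above 0 and 13 below, and -0.08 over all genes. The summed RPKM of the 84 tested members was 13013 in parental cells, 18211 in vector control cells, 21133 in exon 3 knockout cells and 19310 in exon 2 knockout cells, which was 2.72%, 3.41%, 3.71% and 3.58% of the summed RPKM of all genes tested.

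The parental line stood below the others in most members. It was the lowest of the 4 libraries in 68 of 84 members and the highest in 0, whereas it was the lowest in 29.5% and the highest in 20.9% of all genes. The vector control was above the parental line in 79 members, with a median log2 ratio of 0.40 against 0.16 over all genes. It was at least 1.5-fold higher in 18 members (21.4%), near the share of all genes (18.6%). The exon 3 knockout was the highest library in 46 members, the exon 2 knockout in 23 and the vector control in 15, against 23.6%, 18.98% and 36.6% of all genes. Against the vector control alone, the median log2 ratio of the members was 0.22 in exon 3 knockout cells (61 of 84 higher) and 0.10 in exon 2 knockout cells (53 of 84 higher), where all genes gave -0.14 and -0.13. Against the parental line it was 0.68 and 0.51, where all genes gave -0.05 and -0.02. These ratios share libraries, so they are not separate pieces of evidence.

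**Figure D2:**
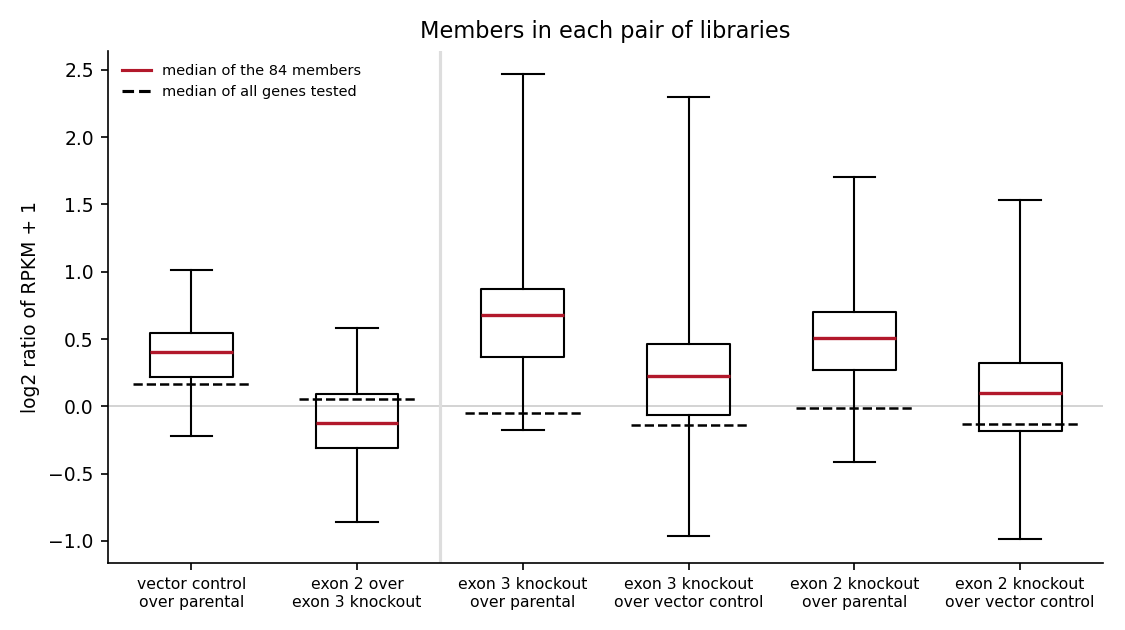
Log2 ratio of RPKM + 1 for the 84 tested members in each pair of libraries. Boxes span the quartiles, whiskers the lowest and highest member, red lines mark the members' median and dashed lines the median of all genes. The members' median is 0.40 between the controls, and over the vector control it is 0.22 in exon 3 knockout cells and 0.10 in exon 2 knockout cells.

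Coding GC content moved with these differences, and coding length did so across all genes but hardly across the members. Across the members the log2 change correlated with coding GC content (Pearson r = 0.43 over 84 genes), as it did across all genes (r = 0.46 over 10767 genes), which are not independent replicates and share the same 4 libraries. Against log2 coding length r was -0.05 across the members and -0.28 across all genes. With each library corrected for coding GC content and length, the median change of the members was 0.17, with 59 of 84 above 0. Over all genes it was -0.08, with 4529 of 10767 above 0. After the correction 32 members had both knockouts above both controls, and the share of all genes in that order was not counted. Over the vector control the corrected median was -0.01 in exon 3 knockout cells, where its sign turned, and 0.06 in exon 2 knockout cells, where all genes gave -0.18 and -0.12. The part of base composition in the result was not tested beyond this correction.

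Within the knockout group the exon 2 line was lower than the exon 3 line in 56 of 84 members, with a median log2 ratio of -0.12 against 0.05 over all genes. It was at least 1.5-fold lower in 4 members (4.76%, against 11.8% of all genes), namely Atp5g1, Cox6a2, Ndufa10 and Ndufb9. Ndufa10, an accessory subunit of complex I, was at 82.5, 131, 180 and 114 RPKM in parental cells, vector control, exon 3 and exon 2 knockouts, so its exon 2 value fell between the controls.

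By complex, the median log2 change was 0.44 in complex I (35 genes tested), 0.28 in complex II (4), 0.22 in complex III (8), 0.37 in complex IV (14), 0.28 in complex V (15) and 0.51 in the assembly factors (8). Members with both knockouts above both controls numbered 22, 1, 3, 7, 6 and 6 in that order, against 21.9% of all genes. Those with both below numbered 1, 1, 0, 1, 1 and 0, against 31.2% of all genes. Complex II, with 1 of 4 genes in each order, was near both shares, and differences between complexes were not tested. After the correction for GC content and length the medians were 0.17, -0.06, 0.22, 0.05, 0.20 and 0.53, so the sign turned in complex II.

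**Figure D3:**
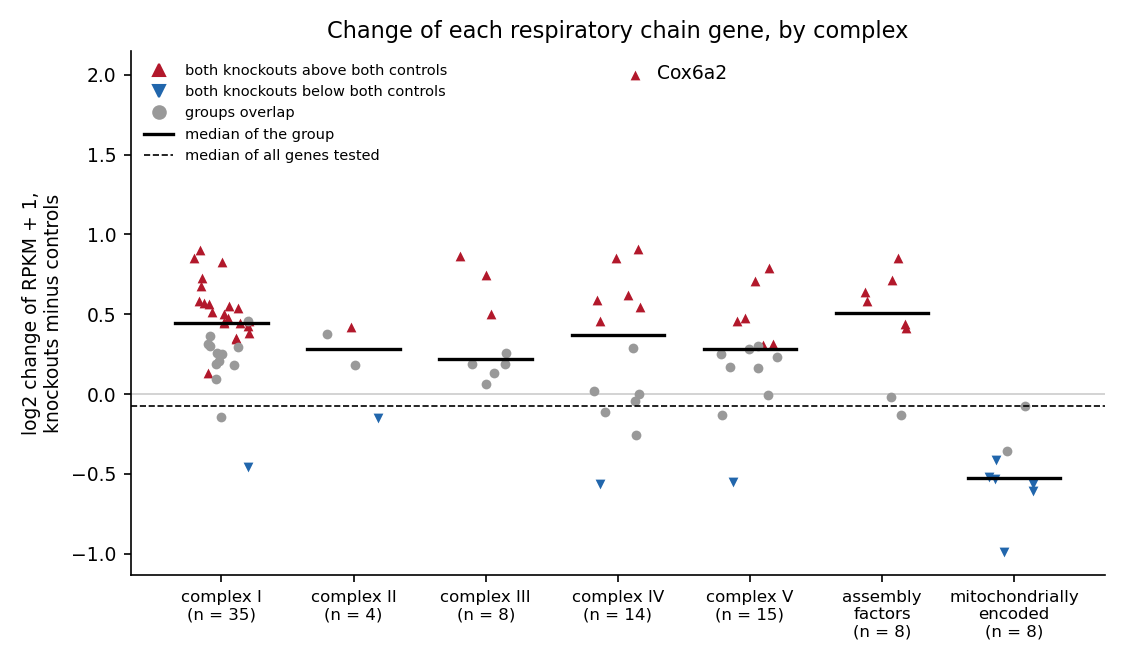
Log2 change of RPKM + 1 (mean of 2 knockouts minus mean of 2 controls) for each tested gene by complex, with mitochondrially encoded subunits at the right. Solid lines are medians, the dashed line is the median of all genes at -0.08, and triangles mark genes whose groups do not overlap. Cox6a2 stands apart at 2.002, and the nuclear complexes have medians between 0.22 and 0.51 against -0.53 for the mitochondrially encoded genes, which turned to 0.06 after the GC and length correction.

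In complex I, the log2 changes ran from -0.46 to 0.90, with 33 of 35 above 0, and the core subunits that carry the electron path were mostly higher in the knockouts. Ndufs7, which holds an iron-sulfur cluster close to the ubiquinone site, was at 90.7 RPKM in parental cells, 115 in vector control cells, 207 in exon 3 knockout cells and 160 in exon 2 knockout cells. Both knockouts were above both controls (log2 change 0.83, SE 0.305, adjusted p = 0.193 by limma), and the change was 0.38 after the GC and length correction. The same order held for Ndufs8, another iron-sulfur subunit, with a log2 change of 0.58, and for Ndufv1 and Ndufv2, which form the NADH-oxidising tip, with 0.55 and 0.54. After the correction these were 0.22 for Ndufs8, 0.31 for Ndufv1 and 0.75 for Ndufv2.

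Ndufs1, the largest subunit of the complex and a carrier of iron-sulfur clusters, had the opposite order. It was at 34.8 RPKM in parental cells, 50.0 in vector control cells, 31.1 in exon 3 knockout cells and 29.2 in exon 2 knockout cells, and the log2 change of -0.46 had an SE of 0.314 (adjusted p = 0.439 by limma). After the GC and length correction its change was 0.03, so its direction rested on the scale used.

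Among the accessory subunits of complex I, Ndufb4 and Ndufa7 had the highest log2 changes. Ndufa7 was at 303 RPKM in parental cells, 295 in vector control cells, 569 in exon 3 knockout cells and 512 in exon 2 knockout cells, and the controls differed by far less than the groups (log2 change 0.85, SE 0.289, adjusted p = 0.173 by limma, the lowest of the complex), but the change was 0.32 after the GC and length correction. Ndufb4 was at 4.84, 5.35, 9.72 and 11.1 RPKM in the same order of lines (log2 change 0.90, adjusted p = 0.189 by limma, and 0.72 after the correction). It was the lowest tested gene of the complex and has a copy of identical coding sequence. Ndufb9 was the most abundant gene of the complex, at 343, 458, 729 and 474 RPKM.

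In complex II, which links the chain to the citric acid cycle, the flavoprotein Sdha and the iron-sulfur protein Sdhb had different orders of the libraries. Sdha was at 112 RPKM in parental cells, 116 in vector control cells, 99.1 in exon 3 knockout cells and 106 in exon 2 knockout cells, lower in both knockouts by a small amount (log2 change -0.15, SE 0.287, adjusted p = 0.799 by limma). Sdhb was at 140, 226, 245 and 218 RPKM in the same lines, so that the parental line alone was low and the groups overlapped. Sdhd, a membrane anchor, was at 168, 191, 223 and 261 RPKM, above both controls in both knockouts (log2 change 0.42, adjusted p = 0.439 by limma), but -0.04 after the GC and length correction.

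In complex III, the small subunits Uqcr10 and Uqcrq were the most abundant genes and had the highest uncorrected log2 changes. Uqcr10 was at 432 RPKM in parental cells, 616 in vector control cells, 1001 in exon 3 knockout cells and 886 in exon 2 knockout cells (log2 change 0.87, SE 0.311, adjusted p = 0.188 by limma). Uqcrq was at 373, 578, 879 and 693 RPKM (log2 change 0.75, adjusted p = 0.247 by limma). In both genes the parental line was the lowest and the exon 3 line the highest. After the GC and length correction their changes were 0.40 and 0.20, below those of Uqcrb and Uqcrc2 (0.51 and 0.49).

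The larger parts of complex III had smaller uncorrected log2 changes than Uqcr10 and Uqcrq. So had the other small subunits, with 0.25 in Uqcrb, 0.13 in Uqcr11 and 0.07 in Uqcrh. Uqcrc2 and Uqcrfs1 were both at 0.19. The core protein Uqcrc1 was at 153, 199, 246 and 248 RPKM, with both knockouts above both controls (log2 change 0.50, adjusted p = 0.367 by limma, and 0.23 after the correction). Its partner Uqcrc2 was at 89.6, 122, 129 and 110 RPKM and the Rieske iron-sulfur protein Uqcrfs1 at 90.6, 121, 112 and 128, and the groups overlapped in both genes. Uqcrb was the lowest of the complex, between 6.67 and 10.8 RPKM, and has a near-identical copy.

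In complex IV, Cox7a2l and Cox8a came after Cox6a2 by size of log2 change. Cox7a2l was at 98.3 RPKM in parental cells, 84.4 in vector control cells, 160 in exon 3 knockout cells and 185 in exon 2 knockout cells. Here the vector control and not the parental line was the lowest, and the log2 change was 0.91 (SE 0.293, adjusted p = 0.162 by limma) and was 0.88 after the GC and length correction. Cox8a was at 239, 400, 554 and 562 RPKM (log2 change 0.85, SE 0.327, adjusted p = 0.205 by limma), and at 0.27 after the correction.

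Not every subunit of complex IV was higher. Cox4i1, the most abundant gene of the complex, was at 581 RPKM in parental cells, 982 in vector control cells, 1121 in exon 3 knockout cells and 758 in exon 2 knockout cells, so the groups overlapped. The log2 change was 0.02 for Cox7a2, -0.00122 for Cox7b, -0.04 for Cox6c and -0.11 for Ndufa4, all with overlapping groups, while Cox6b1 was above both controls in both knockouts (0.46, adjusted p = 0.439 by limma, and 0.07 after the correction).

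In ATP synthase, 12 of 15 log2 changes were above 0, and the catalytic head was led by the vector control and the exon 3 line. Atp5b, the catalytic beta subunit and the most abundant member of all, was at 735 RPKM in parental cells, 1487 in vector control cells, 1427 in exon 3 knockout cells and 1163 in exon 2 knockout cells. Atp5a1, the alpha subunit, was at 452, 796, 726 and 700 RPKM. In both genes the vector control was the highest and the parental line stood apart as the lowest, with log2 changes of 0.30 and 0.25 (adjusted p = 0.679 and 0.705 by limma). The central stalk gene Atp5c1 was at 293, 334, 429 and 349 RPKM, above both controls in both knockouts.

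Atp5d, the delta subunit of the central stalk, was at 339 RPKM in parental cells, 477 in vector control cells, 775 in exon 3 knockout cells and 626 in exon 2 knockout cells (log2 change 0.79, SE 0.313, adjusted p = 0.214 by limma, and 0.30 after the GC and length correction). Atp5o, part of the peripheral stalk, was at 143, 240, 276 and 332 RPKM (0.71, adjusted p = 0.272 by limma). Atp5f1, the b subunit of the same peripheral stalk, had the opposite order, at 136, 203, 126 and 102 RPKM (-0.55, SE 0.317, adjusted p = 0.357 by limma). Both subunits belong to a single structure, and their groups were ordered in opposite directions. After the correction the changes were 0.47 for Atp5o and -0.37 for Atp5f1. Atp5f1 has a copy of 98.7% identity, and both genes overlap the span of another annotated gene.

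Subunit c, which forms the rotating ring of ATP synthase, is encoded by Atp5g1, Atp5g2 and Atp5g3 with the same mature protein. Atp5g3 was at 427 RPKM in parental cells, 622 in vector control cells, 487 in exon 3 knockout cells and 540 in exon 2 knockout cells, with overlapping groups. Atp5g1 was between 3.14 and 6.53 RPKM and Atp5g2 between 0.412 and 1.16, and both have copies of at least 98% identity. Atp5g1 made up 0.763% ± 0.01997 of the subunit c RPKM in controls and 0.949% ± 0.526 in knockouts (SD, n = 2 each, two-sided exact permutation p = 1). Atp5l, a subunit of the membrane part, was the lowest tested gene of the complex at 1.23, 1.51, 2.05 and 2.57 RPKM, on between 12 and 18 reads. Atp5j, a peripheral stalk gene whose span overlaps that of Gabpa, had overlapping groups, with a log2 change of 0.17. In all, 40 of the 92 members overlap the span of another annotated gene, and since the use of strand in counting is not given in the sources used here, their levels may hold reads of that gene.

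Of the 8 assembly factors, 6 had both knockouts above both controls. Ndufaf6 was at 8.92 RPKM in parental cells, 9.13 in vector control cells, 19.2 in exon 3 knockout cells and 15.3 in exon 2 knockout cells (log2 change 0.86, SE 0.318, adjusted p = 0.194 by limma), and 0.83 after the GC and length correction. Atp5sl was at 9.30, 12.4, 19.1 and 17.5 RPKM (0.71, adjusted p = 0.254 by limma, and 0.32 after the correction), and Ndufaf7, a methyltransferase, at 22.1, 20.1, 37.3 and 29.9 (0.64, adjusted p = 0.279 by limma). Ndufaf2, the most abundant, had overlapping groups and a log2 change of -0.13. Assembly genes that the symbol rule leaves out gave a median of 0.24 over 36 tested genes, with 12 ordered higher in both knockouts and 5 lower, and 0 past an adjusted p of 0.05 (5 higher and 1 lower at an unadjusted p under 0.05). Over all genes tested, 21.9% were ordered higher and 31.2% lower, and 5.32% and 13.8% passed the unadjusted p. Ecsit and Cox18 were among those ordered higher (0.82 and 0.84) and Tmem70, which helps assemble ATP synthase, was ordered lower (-1.05, adjusted p = 0.183 by limma).

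The subunits encoded in mitochondrial DNA had the opposite sign in the uncorrected values. Of the 13, 8 were tested, and all 8 had a negative log2 change (median -0.53), as had 5974 of 10871 genes. In 6 of the 8 both knockouts were below both controls, against 31.2% of all genes. But the median was 0.06 after the GC and length correction, with 6 above 0. Their coding GC content was between 34.1% and 39.9%, below that of every tested member (41.8% to 64.8%). mt-Cytb, the cytochrome b of complex III, was at 1738 RPKM in parental cells, 1345 in vector control cells, 803 in exon 3 knockout cells and 739 in exon 2 knockout cells (log2 change -0.99, adjusted p = 0.150 by limma), and at -0.45 after the correction. mt-Co1, the catalytic subunit of complex IV, was between 1637 and 2034 RPKM with overlapping groups. The summed RPKM of the tested nuclear members was 1.97 times that of the tested mitochondrially encoded genes in parental cells, 3.301 times in vector control cells, 4.999 times in exon 3 knockout cells and 4.29 times in exon 2 knockout cells (two-sided exact permutation p = 0.333).

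The mobile carriers and partners outside the symbol rule and the regulators of these genes had 0 genes past an adjusted p of 0.05 in limma. At an unadjusted p under 0.05, 2 were higher and 2 lower, against 5.32% and 13.8% of all genes. Of 9 tested carriers and partners, 4 were ordered higher in both knockouts, among them Cyc1, the cytochrome c1 of complex III, at 192, 302, 460 and 307 RPKM. Chchd10, a mitochondrial protein linked to the folds of the inner membrane, was at 98.7 RPKM in exon 3 knockout cells and between 5.22 and 11.1 in the other lines, so its change rested on that library. Of 13 tested regulators, 5 were ordered higher and 3 lower, with a median log2 change of 0.06, against 21.9% and 31.2% of all genes ordered higher and lower. Nrf1, a transcription factor of many respiratory genes, was between 17.3 and 21.5 RPKM with overlapping groups. Gabpa was at 18.2, 21.3, 6.74 and 15.8 RPKM and Yy1 at 50.2, 50.6, 24.4 and 31.1, both below both controls in both knockouts (adjusted p = 0.259 and 0.186 by limma). Ppargc1a, the coactivator of mitochondrial biogenesis, reached at most 1.28 RPKM.

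Promoter windows from RefSeq (GRCm38.p6, 250 bases before to 50 after a start site) were found for 76 of 92 members and searched on both strands for letters typical of these factors. The Nrf1 letters GCATGCGC were in the windows of 12 members (15.8%), against 3.94% of 17492 protein-coding genes and 3.05% of all 27025 genes with a window. The letters CCGGAAG, typical of ETS factors such as Gabpa, were in those of 17 members (22.4%), against 12.9% and 9.93%. The Yy1 letters AAGATGGCG were in those of 8 members (10.53%), against 2.14% and 1.64%. Member windows had a median GC content of 58.0%, against 52.7% over all windows, and a match of letters is a description and not a bound site.

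The windows of Cox6a1 (chr5:115348909-115349208, minus strand) and Ndufs7 (chr10:80249199-80249498, plus strand) are shown because they hold the letters of all 3 factors between them. Capitals mark the matches. In Cox6a1 these are the Nrf1 letters on both strands, which overlap, and farther on the ETS letters, and in Ndufs7 the Yy1 letters just past the start site.
Cox6a1: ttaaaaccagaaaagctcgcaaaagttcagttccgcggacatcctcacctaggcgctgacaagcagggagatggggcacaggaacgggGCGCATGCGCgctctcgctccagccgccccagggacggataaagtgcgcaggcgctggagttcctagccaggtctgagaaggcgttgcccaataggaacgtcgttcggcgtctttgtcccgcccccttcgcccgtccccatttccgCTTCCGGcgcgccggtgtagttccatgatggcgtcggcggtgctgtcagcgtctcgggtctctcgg
Ndufs7: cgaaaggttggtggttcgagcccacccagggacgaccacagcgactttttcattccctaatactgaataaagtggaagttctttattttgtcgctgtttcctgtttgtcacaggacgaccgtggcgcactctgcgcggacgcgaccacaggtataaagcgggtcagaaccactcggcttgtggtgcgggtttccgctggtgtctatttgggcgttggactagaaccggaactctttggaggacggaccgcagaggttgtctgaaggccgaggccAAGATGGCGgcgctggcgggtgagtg

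Members listed at levels far below their partners in the same complex included genes with near-identical processed copies elsewhere in the genome. A copy of at least 98% identity over at least 80% of the coding sequence was found for 14 members. Their median over the 4 libraries was 9.72 RPKM, and 8 of the 14 were under 15 RPKM, whereas the 78 members without such a copy had a median of 155 RPKM, and 11 of them were under 15 RPKM. The contrast rested on that limit: with copies of at least 95% identity the medians were 43.7 RPKM for 21 members and 146 for the other 71, and with copies of at least 90% they were 142 RPKM for 33 members and 137 for the other 59. At 98% the low 8 were Atp5g1, Atp5g2, Atp5l, Cox7c, Ndufab1, Ndufb4, Ndufs5 and Uqcrb, while Atp5f1 and Uqcr11 had a copy and means of 142 and 222 RPKM. Of the 19 copies found, 18 are annotated as pseudogenes and 0 are listed in the table. With the 14 members left out, the median log2 change was again 0.37, and 39 of 72 members had both knockouts above both controls. How the authors treated reads with several equal matches is not given in the sources used here, and the part of copies in these levels was not tested.

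The coding sequence of Cox7c, a subunit of complex IV, is shown because a pseudogene holds all of it. It was at 1.33 RPKM in parental cells, 2.26 in vector control cells, 2.44 in exon 3 knockout cells and 3.71 in exon 2 knockout cells. The gene is at chr13:86044816-86046904 on the minus strand of GRCm38, and the processed pseudogene Gm12338 at chr11:75599763-75599954 on the minus strand has the same 192 bases, with 0 mismatches, so no base is in capitals.
Cox7c: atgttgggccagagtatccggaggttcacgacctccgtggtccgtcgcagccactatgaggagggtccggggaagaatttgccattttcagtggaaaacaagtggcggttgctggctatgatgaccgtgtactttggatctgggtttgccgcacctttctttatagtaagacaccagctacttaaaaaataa
Ndufab1, the acyl carrier protein of complex I, was likewise between 0.613 and 1.23 RPKM and under the filter, as was Atp5g2. Levels and changes of members with such copies are uncertain. In the mitochondrial genome, mt-Nd3, mt-Nd4l, mt-Co2, mt-Co3 and mt-Atp6 have a copy of at least 98% identity. Their means over the 4 libraries were 0.107, 0.0269, 2.75, 0.857 and 0.661 RPKM in that order. Without such a copy, mt-Atp8, with 0 copies at 90% identity or more, had a mean of 0.261 RPKM. The other mitochondrially encoded genes had means between 231 and 1880 RPKM. The part of copies in these levels was not tested.

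**Figure D4:**
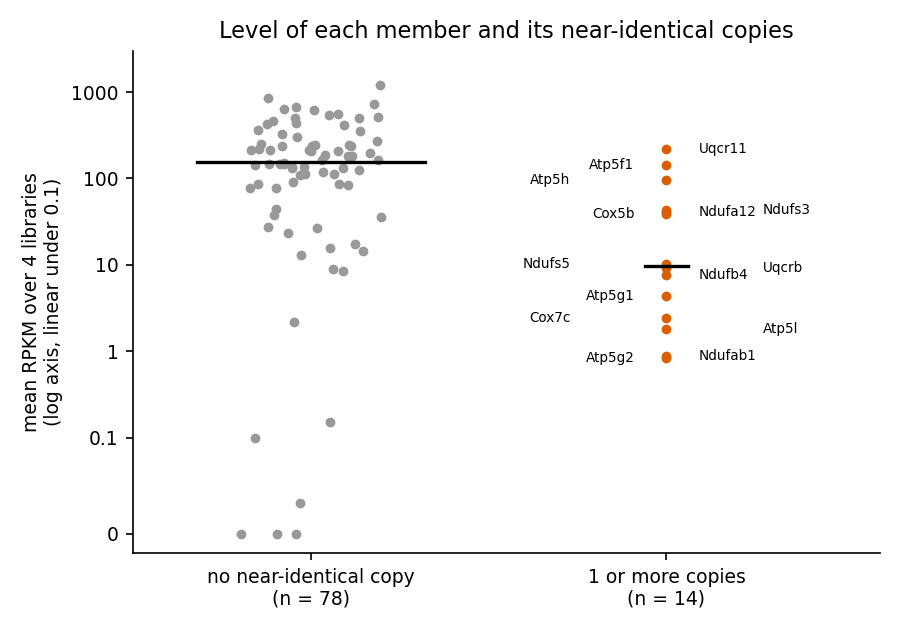
Mean RPKM over the 4 libraries of each member, on a log axis that is linear under 0.1, split by whether the GENCODE M21 transcripts hold a copy of at least 98% identity. Black lines are medians, 155 RPKM for 78 members without a copy and 9.72 RPKM for the 14 with 1 or more, which are named.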

How the data were processed

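RNA-seq was performed on 4 mouse mammary tumor lines, 1 library each. The authors deposited RPKM values, 1 column per library, without log scale or rounding. The submitters' processing notes name CASAVA version 1.8, GSNAP and GRCm38, with no role given, and the gene model, counting rule and use of strand are not given in the sources used here. Ratios between libraries gave whole reads for 99.95% of the genes above 0 (tolerance 0.01 reads), and 60.7% of 10773 gene lengths equalled a coding length in GENCODE M21, while the rest, some members among them, did not. Read numbers are the smallest that give a gene length equal to an annotated coding length. Where none did, they are the smallest that give a whole length. Intervals cover counting error only.

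Values were analysed as log2(RPKM + 1), which understates changes of low genes, for 10871 genes with a mean of at least 1 RPKM. An intensity-trend fit in limma 3.58.1 (R 4.3.3) compared 2 knockouts with 2 controls, with Benjamini-Hochberg adjusted p-values over all genes and a threshold of 0.05. The test was checked on simulated data. Whether groups overlap was read from RPKM. Single values were compared by a two-sided exact permutation test, which cannot go below p = 0.333. Corrections for coding GC content and length used natural splines (4 degrees of freedom). BLAST+ 2.17.0, Biopython 1.88, Python 3.11.15 and pandas 2.3.3 were used for copies, alignments and counts, and all 4 columns were matched to a library by title.

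Named genes were the isoform sets, the catalytic and core subunits, in each complex the 3 largest increases and decreases without overlap, and the most and least abundant tested genes. A gene that this rule names is not reported here by name. Others named were chosen after their values were seen. Members and lists were chosen with earlier results of these data known.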

Additional observations from a re-analysis of the deposited data

Results flagged for a closer look

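In 3 of 84 tested members (3.57%, against 7.88% of all genes tested) the exon 3 and exon 2 knockouts lay on opposite sides of both controls. The log2 difference between the exon 3 and the exon 2 knockout was 0.86 for Atp5g1, which was at 6.53 and 3.14 RPKM there, and 0.46 for Ndufa5, an accessory subunit of complex I, at 109 and 78.9 RPKM. It was -0.26 for Cox7a2, at 499 and 597 RPKM, where the exon 2 line was the higher. With 1 library per knockout these differences were not tested. Atp5g1 rested on 63 and 29 reads in these libraries, with exact Poisson intervals from 5.02 to 8.35 and from 2.10 to 4.51 RPKM.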

How the results depend on the processing

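Alternatives were a pseudocount of 0.1, median-ratio scaling, quantile normalization, no filter, a filter at a mean of 5 RPKM, limma with a robust prior or with no trend, corrections for length or for GC content and length, and leaving out each library. After the data were seen, voom on recovered reads and leaving out members with near-identical copies were added. No paired analysis was possible because the titles give no replicate numbers that pair a knockout with a control. The median change of the members was positive throughout, from 0.17 without the parental line and with the GC and length correction to 0.57 without the vector control. With all 4 libraries kept, the number of members called was 0 except with a filter at 5 RPKM and with the robust prior. Each of these called 1, Cox6a2 (log2 change 2.002 in both, adjusted p = 0.0487 and 0.00562 by limma). Without the vector control limma called 6, namely Atp5d, Atp5o, Cox6a2, Cox8a, Uqcr10 and Uqcrq, and without the parental line 2, Cox6a2 and Cox7a2l. The log2 change of Cox6a2 in those fits was between 1.62 and 2.38. Over the alternatives with all 4 libraries its adjusted p was from 0.00562 to 0.328 by limma. Over all genes, limma called 32 of 8710 with the filter at 5 RPKM and 285 of 10871 with the robust prior. The main fit called 2 of 10871, so more genes of any kind passed under both settings. With a library left out, only the lines that remained were compared, an order easier to meet. Members with the remaining knockouts above the remaining controls numbered 45 to 73 (73 without the vector control). Those below numbered 4 to 15 (15 without the parental line), and shares over all genes were not counted. Members below both controls numbered 9 with quantile normalization and 13 with the length correction. Shares over all genes were not counted for these settings either. A lone library left in a group is assumed to vary like the other group. Members called with a library left out are therefore not given. The cause of these changes was not tested. Few reads limit the genes under 15 RPKM.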
